A study of Mus musculus with 54 samples.

Results

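The regions of accessible chromatin around 6 genes, Dppa2, Dppa4, Dppa5a, Tdh, Tcl1 and L1td1, were described from the merged ATAC-seq peak list of mouse embryonic stem (ES) cells that carry a degradable OCT4. A peak was counted for a gene when its centre lay within 50 kb of any annotated transcription start site (TSS) of that gene in GENCODE M21, on the genome build GRCm38. This rule took 59 of the 113737 peaks of the list, or 0.0519%. Of these peaks, 9 were TSS peaks, centred within 1 kb of a TSS of one of the 6 genes, 46 were distal, centred more than 1 kb from every annotated TSS of any gene, and 4 were centred within 1 kb of the TSS of some other gene only. Because Dppa2 and Dppa4 are neighbours on chromosome 16, 17 of the peaks lay within 50 kb of both and were counted once, so that the 6 genes stood for 5 separate loci.

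In ATAC-seq, open DNA is cut and tagged by the Tn5 transposase and then sequenced. The cells were ZHBTc4, a mouse ES line whose own Pou5f1 gene, encoding OCT4, is shut off by doxycycline (dox), and every one of the 54 samples was treated with dox and expressed mCherry-OCT4-AID, an OCT4 fusion degraded after addition of indole-3-acetic acid (IAA, auxin), together with the ubiquitin ligase Tir1 that this needs and the cell cycle reporter YPet-MD. In the cell cycle set, 22 samples received dox for 26 hr with or without 500 nM IAA for 2 hr and were sorted by DNA content and reporter into the phases EG1 and LG1 (the early and the late part of G1), S and SG2, with n = 3 a group and n = 2 in SG2. In the washout set, 16 samples received dox for 31 hr, with or without IAA for 2.5 hr, and all had a washout of 4.5 hr, in the same 4 phases with n = 2. In the time course, 16 unsorted samples received dox and no IAA or IAA for 30 min, 1, 2, 3, 4, 6 or 10 hr, with n = 2. Their dox time was taken as 34 hr, which holds if dox was added to all wells at the same time. The study states only how long dox was given before IAA and that all wells were collected together. The OCT4 fusion was delivered by lentiviral vector to a sorted population and, per the study's text, driven at low levels by the constitutive PGK promoter, not by the endogenous locus. The analysed list was merged over libraries and gives positions only, so no value below belongs to a sample, phase or treatment. The response of these regions to OCT4 loss was not measured by it, and no replicate error could be given.

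All 6 genes are expressed in mouse ES cells and in the early embryo, and several are also active in the germline. Dppa2 and Dppa4 encode a pair of SAP domain proteins that bind chromatin together as a heterodimer. Dppa5a encodes a KH domain RNA-binding protein. Tdh encodes threonine dehydrogenase, the mitochondrial enzyme that starts the breakdown of threonine to glycine and acetyl-CoA. Tcl1 encodes a co-activator of the AKT kinases, and L1td1 encodes an RNA-binding protein derived from a LINE retrotransposon that associates with LIN28. Promoters are commonly described by their CpG dinucleotides: CpG-rich promoters are usually unmethylated and open in most cell types, whereas CpG-poor promoters tend to be open only where the gene is used. The pluripotency factors OCT4 and SOX2 bind side by side on a composite site, most often away from promoters.

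The promoter sequences below are from RefSeq on GRCm38.p6 and run from 250 bases before to 50 bases after the start site. They were found for Tcl1 and L1td1, 2 of the 6 genes, and are shown for where their CpGs fall. CpGs are in capitals.
Tcl1 promoter, chr12:105222688-105222987, minus strand: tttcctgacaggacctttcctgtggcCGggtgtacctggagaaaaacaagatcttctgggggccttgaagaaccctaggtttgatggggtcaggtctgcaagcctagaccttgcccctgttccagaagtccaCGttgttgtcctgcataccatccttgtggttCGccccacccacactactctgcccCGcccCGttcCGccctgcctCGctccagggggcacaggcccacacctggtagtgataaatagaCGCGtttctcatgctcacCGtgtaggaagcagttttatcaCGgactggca
L1td1 promoter, chr4:98726504-98726803, plus strand: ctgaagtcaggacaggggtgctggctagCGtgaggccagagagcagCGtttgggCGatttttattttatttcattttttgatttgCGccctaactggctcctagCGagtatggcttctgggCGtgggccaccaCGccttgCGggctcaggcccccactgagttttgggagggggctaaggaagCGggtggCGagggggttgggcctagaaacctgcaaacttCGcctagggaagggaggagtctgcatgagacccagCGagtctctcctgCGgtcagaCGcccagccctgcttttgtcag
All 300 bases of both windows lay inside the TSS peak of the gene. The Tcl1 window held 11 CpGs and the L1td1 window 14. The GC box GGGCGG, the letters bound by SP-family factors, was matched at 2 places in Tcl1, 64 and 54 bases before the TSS on the strand opposite to the gene, and in 35.7% of the 32851 RefSeq promoters. The KLF motif GGGNGTGG was matched once in L1td1, 132 bases before its RefSeq TSS, and in 17.6% of all promoters. Neither window held the other letters searched on both strands, which were TATAAA (in 13.6% of all promoters), CCAAT (37.4%), the E-box CACGTG (7.15%), the E2F motif GCGGGAA (4.6%), the OCT motif ATTTGCAT (1.74%), the SOX motif CCNTTGT (13.6%) and the ESRRB motif AAGGTCA (4.72%). The GC box and KLF letters can overlap in GC-rich sequence.

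Short stretches of 41 bases around motif matches in the peaks are shown next, each on the strand of the match and with the match in capitals. The first is the closest match to the OCT4::SOX2 composite motif in a distal peak, then come both OCT motifs inside the Dppa2 TSS peak, followed by an ESRRB and a SOX motif 1 base apart in a distal peak of Tdh. The next pair are CTCF matches in distal peaks beside Tcl1b5 and Tcl1b3, and the last 3 are KLF matches in repeat-masked bases near Dppa2 and Dppa5a.
Tcl1 OCT4::SOX2, chr12:105266003-105266043, plus strand: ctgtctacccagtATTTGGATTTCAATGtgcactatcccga
Dppa2 OCT, chr16:48304378-48304418, minus strand: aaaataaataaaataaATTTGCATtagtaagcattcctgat
Dppa2 OCT, chr16:48304579-48304619, minus strand: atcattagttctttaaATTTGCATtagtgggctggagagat
Tdh ESRRB, chr14:63458450-63458490, minus strand: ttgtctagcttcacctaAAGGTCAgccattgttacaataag
Tdh SOX, chr14:63458442-63458482, minus strand: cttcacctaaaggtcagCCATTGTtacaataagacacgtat
Tcl1 CTCF, chr12:105174485-105174525, minus strand: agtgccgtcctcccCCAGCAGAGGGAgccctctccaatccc
Tcl1 CTCF, chr12:105189131-105189171, minus strand: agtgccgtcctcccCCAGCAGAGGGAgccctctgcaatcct
Dppa2 KLF, chr16:48309135-48309175, plus strand: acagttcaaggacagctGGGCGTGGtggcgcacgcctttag
Dppa2 KLF, chr16:48320769-48320809, plus strand: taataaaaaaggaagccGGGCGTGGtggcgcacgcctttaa
Dppa5a KLF, chr9:78385896-78385936, minus strand: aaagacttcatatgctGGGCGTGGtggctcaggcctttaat
A match gives letters in an open region and no measurement of binding.

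Marker genes of ES cells and of other cell types were looked up in the list. Each of 6 ES cell markers (6 of 6) had a TSS peak, against 3 of 4 fibroblast markers, with Col3a1 lacking one, and 1 of 5 markers of other tissues, with Alb, Hbb-bs, Myh6 and Ins2 lacking one. The share over all protein-coding genes was 70.8%, so these small counts do not identify the cell type by themselves. The list had 11 peaks above 5 kb, none of them among the 59. The study's methods describe the removal of such peaks, and of peaks that overlap input peaks or blacklisted regions, so the list is not fully the filtered one described there, and whether the input and blacklist filters had been applied to it was not tested.

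All 6 genes had a TSS peak, and 70.8% of the 21938 protein-coding genes had one. The 9 TSS peaks were 390 to 1382 bp wide. In 5 of the 6 genes the widest TSS peak was narrower than the median of 1219 bp over the 15535 genes with a TSS peak, whose range from the 10th to the 90th percentile was 686 to 1806 bp. Dppa2 was the exception.

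Dppa2 (ENSMUSG00000072419.5, chr16:48303908-48319723, plus strand) had the widest TSS peak of the 6, at chr16:48303339-48304720. It spanned 1382 bp, reached 569 bp before and 812 bp after the TSS, and was wider than that of 66.8% of the genes with a TSS peak. Another Dppa2 peak of 511 bp, chr16:48310012-48310522, contained the second annotated TSS of the gene and lay mostly before it. Dppa4 (ENSMUSG00000058550.15, chr16:48283733-48294237, plus strand), which starts about 20.2 kb upstream on the same strand, had 1 TSS peak of 1018 bp at chr16:48283397-48284414. All 3 Dppa4 TSSs lay inside it, and 28.5% of genes had a narrower one. The Dppa5a peak (ENSMUSG00000060461.5, gene at chr9:78367052-78368177, minus strand) was the narrowest of the main TSS peaks. It measured 620 bp at chr9:78367730-78368349, with 172 bp before the TSS and 447 bp after it, and 8.09% of genes had a narrower one.

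Tdh (ENSMUSG00000021953.14, chr14:63492347-63509092, minus strand) had its main TSS peak, 849 bp wide, at chr14:63508353-63509201. It contained 2 of the 4 TSSs of the gene, and a smaller peak of 390 bp within the gene body contained one more, at 63500259. Tcl1 (ENSMUSG00000041359.14, chr12:105216750-105222793, minus strand) had a single TSS peak of 888 bp at chr12:105222301-105223188. All 6 of its TSSs lay inside, and the peak was centred 7 bp from the nearest. L1td1 (ENSMUSG00000087166.9, chr4:98726734-98738480, plus strand) had a TSS peak of 943 bp at chr4:98726435-98727377 that held 3 of its 4 TSSs. The remaining TSS was outside any peak and lay 642 bp before the centre of a peak of 508 bp in an exon of the gene. Genes with a narrower TSS peak made up 16.7% for Tdh, 18.9% for Tcl1 and 22.5% for L1td1.

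**Figure D1:**
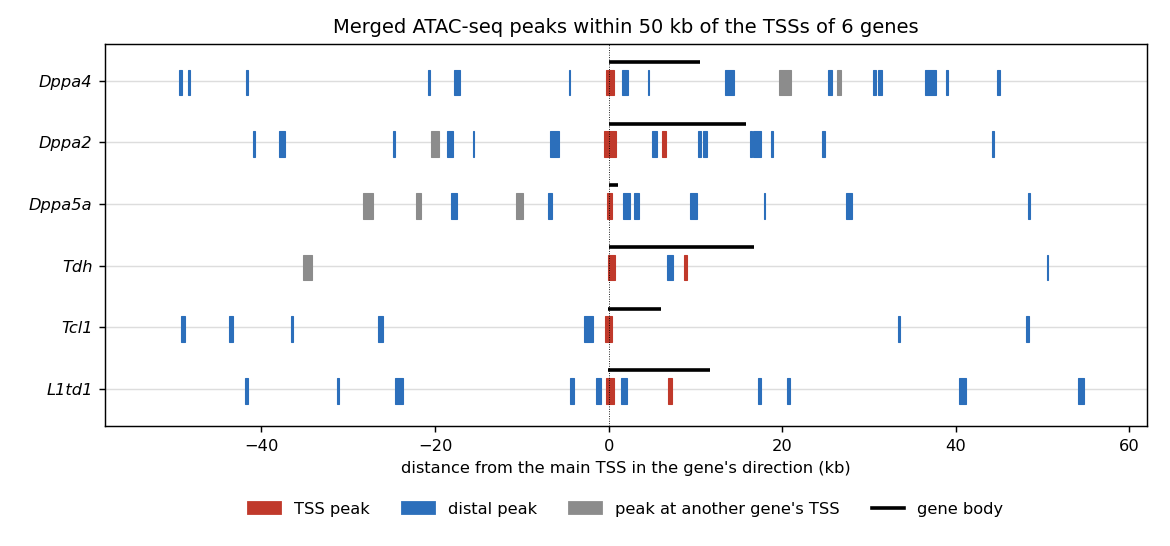
Position of each peak relative to the main TSS of its gene, in kb in the direction of transcription, for the 6 genes, with box widths to scale and the gene body as a black line. A TSS peak (red) sits at 0 in each row, distal peaks (blue) are dense around Dppa4 and Dppa2 with 17 and 15, and Tdh has 2.

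CpG content was measured in the 1 kb centred on the main TSS, as the ratio of observed CpGs to the number that the C and G content gives by chance. This ratio was below the median of 0.570 over 21853 protein-coding promoters in all 6 genes. Dppa2 had the lowest, 0.238 with 11 CpGs and 43.0% GC, and Dppa4 followed with 0.389, 19 CpGs and 44.6% GC. The ratio was 0.406 for Tcl1, 0.441 for Dppa5a, 0.492 for L1td1 and 0.506 for Tdh. The median over promoters of genes with a TSS peak was 0.70, and over those without one 0.16, so the 6 ratios lay between these medians. GC content did not set the genes apart in the same way, since Tcl1 at 56.4% and L1td1 at 56.5% were above the median of 55.3% while Dppa5a at 51.3% and Tdh at 54.8% were below it.

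Promoters were also sorted into high, intermediate and low CpG classes by the best 500-base stretch between 1300 bases before and 200 bases after the TSS. None of the 6 genes was in the high class, which held 37.5% of promoters. Tcl1 and L1td1 were in the intermediate class (25.3% of promoters), and Dppa2, Dppa4, Dppa5a and Tdh were in the low class (37.2%). A TSS peak was present at 87.4% of intermediate genes and at 31.1% of low genes, and at 2 of 2 and 4 of 4 of the genes described here. The class of 3 genes depended on where the stretch was sought. When it was moved to the 500 bases on either side of the TSS, an alternative chosen after seeing the data, only Dppa2 stayed low, the other 5 were intermediate and none was high. Under that alternative a TSS peak was present at 83.5% of intermediate genes and at 27.1% of low genes, so only Dppa2 was then set against the low share. The median width of TSS peaks was 884 bp in low genes, 1133 bp in intermediate genes and 1334 bp in high genes, and the widest TSS peaks of Tcl1 and L1td1 were below their class median. In the low class, Dppa2 and Dppa4 were above that median and Dppa5a and Tdh below it.

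**Figure D2:**
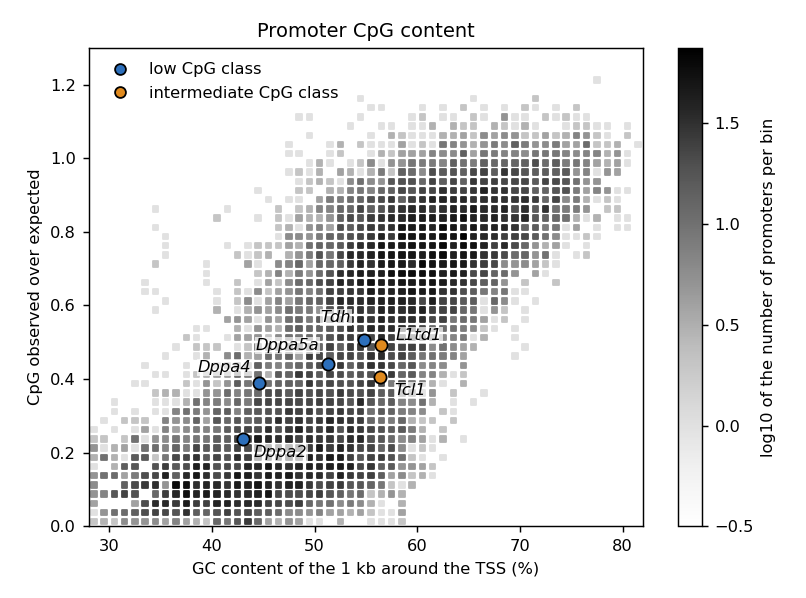
Ratio of observed to expected CpGs against GC content in the 1 kb around the main TSS, with all protein-coding promoters in grey bins shaded by their number on a log10 scale and the 6 genes as circles coloured by CpG class. The 6 circles lie between 0.238 and 0.506, below the dense CpG-rich group of promoters, with Dppa2 and Dppa4 also low in GC.

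Distal peaks were unevenly spread among the genes. Dppa4 had 17 and Dppa2 15, with most of these shared, L1td1 had 10, Dppa5a 9, Tcl1 7 and Tdh 2. The median gene with a TSS peak had 5, with 1 and 12 at the 10th and 90th percentiles, so Dppa4 and Dppa2 exceeded the 90th percentile and had more distal peaks than 96.9% and 95.2% of genes. The corresponding share was 82.1% for L1td1, 76.9% for Dppa5a, 62% for Tcl1 and 11.3% for Tdh. Per 100 kb searched, the values were 17.0 for Dppa4, 14.1 for Dppa2, 9.39 for L1td1, 9.0 for Dppa5a, 6.99 for Tcl1 and 1.79 for Tdh, against a median of 4.42 over genes with a TSS peak.

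The order of the genes depended on the window. Within 20 kb of the TSSs, Dppa2 had 10 distal peaks, Dppa5a 7, Dppa4 6, L1td1 5, and Tcl1 and Tdh 1 each. Within 50 kb, with regions less than 500 bp apart joined into 1, Dppa4 had 13 and Dppa2 11, the latter below the 90th percentile of 12 of the list before joining. In the 1 Mb centred on the main TSS, Dppa2, Dppa4, Dppa5a, Tcl1 and L1td1 had 57 to 76 distal peaks, or 5.70 to 7.60 per 100 kb, with Tcl1 the highest. Tdh had 11, or 1.1 per 100 kb, compared with 3.29 over the whole list. Dppa2 had 68 and Dppa4 69, fewer than the 72 of Dppa5a. Tdh was the lowest of the 6 within 50 kb and in the 1 Mb, and it was tied with Tcl1 within 20 kb.

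**Figure D3:**
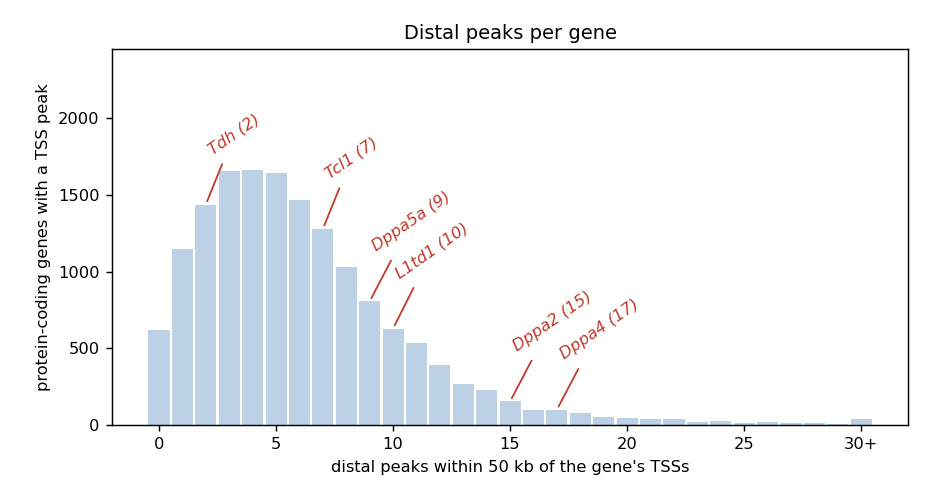
Histogram of protein-coding genes with a TSS peak (vertical axis, number of genes) by how many distal peaks fell in the 50 kb windows of each (horizontal axis, with 30 or more in the last bar). The 6 genes are marked with their counts, and Tdh with 2 lies left of the median of 5 and the other 5 genes lie right of it.

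The distal peaks were in introns in 15 cases and intergenic in 31, and none was in an exon. Over all 89795 distal peaks, 44.3% were intronic, 49.6% intergenic and 6.14% exonic. By distance to the nearest TSS of the gene, 14 of the 46 were within 5 kb, 18 within 10 kb and 27 within 20 kb. Every gene had its nearest distal peak between 1199 bp (L1td1) and 2214 bp (Tcl1) from a TSS.

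Along the Dppa4 and Dppa2 locus, distal peaks lay upstream, between the genes, inside both and downstream. Inside the Dppa4 introns were chr16:48285315-48285994 (680 bp) and chr16:48288239-48288416 (178 bp). Between the genes lay the widest distal peak of the locus, chr16:48297189-48298146, with 958 bp and its centre 6.24 kb upstream of Dppa2. The Dppa2 introns held 3 distal peaks of 343 to 565 bp, the nearest centred 1231 bp upstream of the second Dppa2 TSS. Just past the end of Dppa2, chr16:48320503-48321429 spanned 927 bp and was separated by 14 bp from a peak of 304 bp. Farther upstream, 2 peaks near Gm49770 were separated by 1 bp, so neighbouring regions that were kept apart by the merge contributed to the count of the locus. In all, 5 of the 59 peaks had the next peak starting within 500 bp, against 6.94% of all peaks.

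Dppa5a had 3 distal peaks between 2.05 and 3.37 kb downstream of its TSS, past the end of this short gene. The widest of its distal peaks was chr9:78357932-78358772, with 841 bp, 9.82 kb downstream between Dppa5a and Gsta2, a glutathione S-transferase gene that held 2 more in its introns. Ooep, an oocyte gene of the same KH domain family, had its own TSS peak of 818 bp 10.3 kb upstream of Dppa5a. Peaks at the TSSs of Gm8087 and of Ddx43, a DEAD-box RNA helicase gene that starts beside 4930542C12Rik, lay farther upstream.

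The Tdh distal peaks were chr14:63501726-63502418, 693 bp wide in an intron of Tdh, and chr14:63458405-63458617, 213 bp wide in an intron of Fam167a and 38.6 kb from the nearest Tdh TSS. The intronic peak lay between both Tdh TSS peaks. On the other side, the next peak was at the TSS of Mtmr9, a myotubularin-related phosphatase gene, 34.7 kb upstream of Tdh. Tcl1 had 5 distal peaks upstream and 2 downstream. The widest of the 46, chr12:105224496-105225519 with 1024 bp, was also the one nearest to Tcl1, at 2.21 kb upstream. The downstream pair lay within 2 kb of the TSSs of Tcl1b5 and Tcl1b3, paralogues of Tcl1.

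L1td1 was flanked closely on both sides. Its distal peaks included chr4:98725245-98725825, 581 bp wide and 1199 bp upstream, chr4:98728203-98728826, 624 bp wide in an intron 1721 bp downstream, and chr4:98722348-98722734, 387 bp wide and 4.19 kb upstream. The upstream gene Patj, which encodes a tight junction scaffold protein, held 3 in its introns, the widest of them 907 bp. The downstream gene Kank4 held 2, of 882 and 750 bp.

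The 46 distal peaks were 176 to 1024 bp wide with a median of 381.5 bp, and all distal peaks had a median of 380 bp. Of the 46, 2 were under 200 bp, a share close to the 5.38% of all distal peaks. The median width was 321 bp for both Dppa2 and Dppa4, 379 bp for Dppa5a, 453 bp for Tdh, 465 bp for Tcl1 and 484 bp for L1td1. Median GC content was 46.9%, against 47.7% over all distal peaks. The median share of repeat-masked bases was 25.5%, against 13.0%, and it differed by locus, from 1.44% for Tdh and 7.87% for Tcl1 to 17.8% for L1td1, 31.0% for Dppa2 and Dppa4 and 34.8% for Dppa5a. At least 50% of the bases were masked in 7 of the 46, against 15.6% of all distal peaks, and no base was masked in 9, against 17.8% of all distal peaks.

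**Figure D4:**
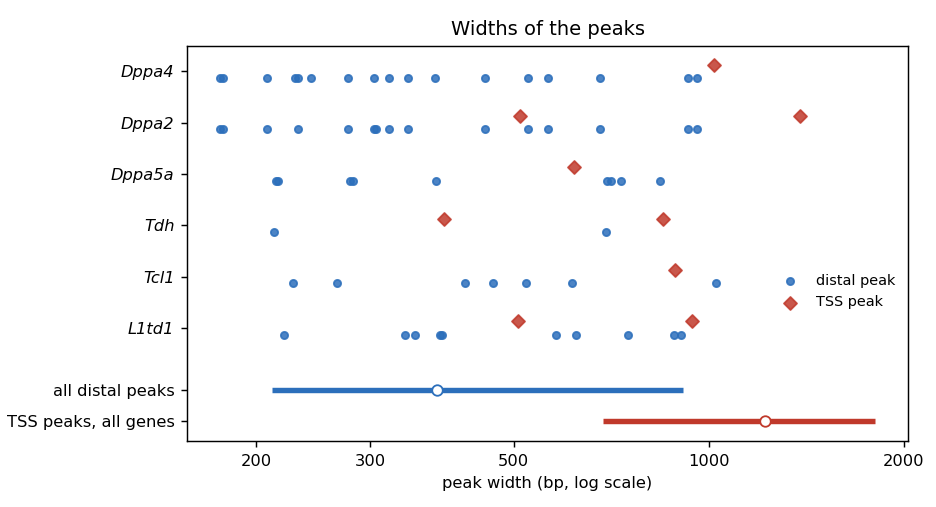
Width in bp on a log scale of each TSS peak (red diamonds) and distal peak (blue circles) of the 6 genes, above bars for all distal peaks and for the widest TSS peak of every gene, with the bars running from the 10th to the 90th percentile and open circles at the medians of 380 and 1219 bp. Distal widths of the genes span the blue bar, and the main TSS peaks of every gene but Dppa2 lie left of the red median.

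The OCT4::SOX2 composite motif, searched with up to 2 mismatches on both strands, was found in 1 of the 46 distal peaks, or 2.17% with an exact 95% interval of 0.055 to 11.5%, and in 0.784% of all distal peaks. The peak was chr12:105265997-105266519, 43.5 kb upstream of Tcl1, and the match lay 235 bp from its centre. With up to 3 mismatches the motif was found in 5 peaks, 1 each by the nearest gene for Dppa4, Dppa2, Dppa5a, Tcl1 and L1td1, against 5.96% of all distal peaks. The OCT motif alone was in 0 of 46, which allows a share of up to 7.71% by the exact interval, and in 3.05% of all distal peaks. Intervals cover counting error only, and a count this small cannot tell the share of these peaks from that of the list. A search by letters with few mismatches is strict. With another motif method, the study found the composite motif at a larger share of its bound loci that lost accessibility without OCT4. The low shares here therefore do not measure how often such sites occur in distal peaks or near these genes.

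The SOX motif was matched in 17 of the 46 distal peaks (37.0%, interval 23.2 to 52.5%), against 27.9% of all distal peaks, and it was found at every gene. CTCF, the insulator and loop anchor protein, had a match with up to 1 mismatch in 11 peaks (23.9%, interval 12.6 to 38.8%), against 16.1%. KLF was matched in 9 (19.6%), against 19.2%, and ESRRB, an orphan nuclear receptor of the pluripotency network, in 6 (13.0%), against 15.1%. Every one of these intervals contained the share in all distal peaks. SOX letters form part of the OCT4::SOX2 motif, so the searches are not separate.

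**Figure D5:**
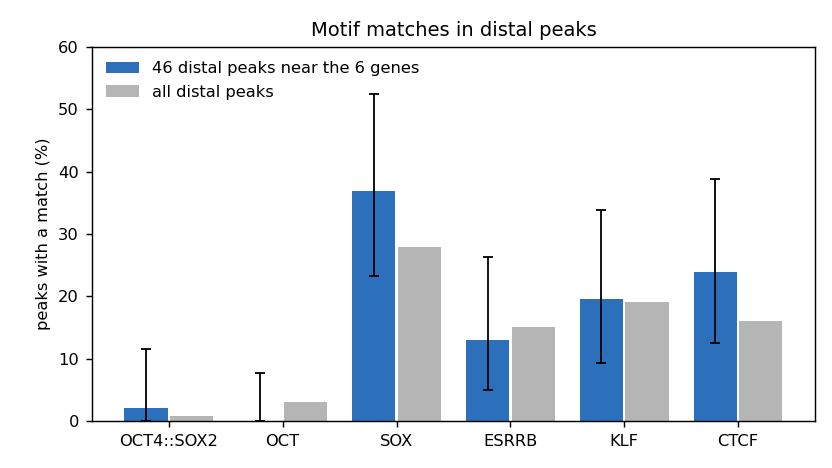
Share of distal peaks in percent with a match to each of 6 motifs, for the 46 peaks near the 6 genes (blue, with exact 95% intervals that cover counting error only) and for all 89795 distal peaks (grey). The blue bars run from 0% for OCT to 37.0% for SOX, and each interval spans the grey value.

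Of 10 KLF matches in the distal peaks, 6 lay in repeat-masked bases, against 43.1% of KLF matches in all distal peaks. For SOX it was 1 of 17, against 22.7%, for ESRRB 2 of 6, against 24.1%, and for CTCF 5 of 12, against 20.7%. These counts are small, and no difference between motifs or from the list was tested. The masked KLF matches printed above share GGGCGTGG followed by tgg and a cctttaa or cctttag run. The CTCF stretches beside Tcl1b5 and Tcl1b3 were identical at 39 of 41 bases and both were unmasked, so these peaks share sequence as well as a gene cluster.

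In the 9 TSS peaks, SOX was matched in 4, KLF in 4, and OCT, ESRRB and CTCF in 1 each, with no OCT4::SOX2 match at up to 2 mismatches. Over the 23942 proximal peaks of the list the shares were 33.3% for SOX, 41.5% for KLF, 3.12% for OCT, 14.3% for ESRRB, 18.4% for CTCF and 0.568% for OCT4::SOX2. The OCT peak was that of Dppa2, which held ATTTGCAT at 490 and 691 bp after the TSS, the nearer one in masked bases, together with SOX matches 124 and 453 bp before the TSS. The Dppa4 TSS peak held a SOX match 173 bp after its main TSS. The main Tdh TSS peak held the ESRRB match and 2 KLF matches, at 143 and 697 bp after the main TSS. Dppa5a had a KLF match 39 bp before its TSS.

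Related genes were read the same way. Among 12 genes listed as paralogues or cluster neighbours, 3 had a TSS peak, namely Ooep, Khdc1a and Mtcp1, a relative of Tcl1. The share was 70.8% over all protein-coding genes and 31.1% over those of the low CpG class. None of Tcl1b1, Tcl1b2, Tcl1b3, Tcl1b4 and Tcl1b5 had one, although Tcl1 itself did, and their CpG ratios were 0.104 to 0.182, below the 0.406 of Tcl1. Dppa3, which encodes the maternal factor STELLA, had 12 distal peaks within 50 kb and no TSS peak. It lies on chromosome 6, where none of the genes described here is, and whether it is related to them by sequence was not examined. Of the 12 genes of this list, 10 were in the low CpG class and 0 in the high class, against 37.2% and 37.5% of all promoters. Among 12 germline genes, 11 had a TSS peak, Asz1 being the one without, against 70.8% of all protein-coding genes. These 12 had a median of 2 distal peaks (range 0 to 11). The high CpG class held 7 of them, including Dazl, Ddx4 and Sycp1, against 37.5% of all promoters. In that class 99.1% of all genes had a TSS peak. Among 9 partners of the pathways of the 6 genes, all 9 had a TSS peak, beside the same 70.8%, with a median of 5 distal peaks (2 to 9). Beside the 2 of Tdh, Gcat, the enzyme after threonine dehydrogenase, had 8. Among genes of the glycine cleavage system, Gldc had 9, Amt 5, Gcsh 3 and Dld 2, the same as Tdh. Akt1 and Akt2, the kinases that TCL1 binds, had 8 each, beside the 7 of Tcl1. Lin28a had 3 and Lin28b 4, beside the 10 of L1td1.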

How the data were processed

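ATAC-seq libraries of 54 samples were described by the labels, and 1 peak list merged over the series was analysed. The authors aligned reads to GRCm38 with STAR 2.6.1c, removed duplicates with Picard, kept reads on the autosomes and sex chromosomes only, ran MACS2 2.1.1.20160309 on paired-end fragments and merged the resulting regions with BEDTools. The deposited positions (chromosome, start and end in bp) carry no score or signal, so how deeply each was sequenced is unknown. Whether peaks were called per library is not given in the sources used here. Deeper or more libraries give a longer merged list, and a merged region can be wider than any single call.

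Peaks were placed on GENCODE M21 and the GRCm38.p6 sequence, 1-based, by their centres. The main TSS was taken from the APPRIS principal transcript. High CpG class required a 500-base stretch with a ratio above 0.75 and GC above 55%, and low class none above 0.48. Repeat-masked bases are those in lower case in the RefSeq genome. The code was tested on simulated data with planted motifs. Sequences were read with pysam 0.24.0, tables with pandas 2.3.3 and numpy 2.4.6, and intervals computed with scipy 1.17.1 in Python 3.11.15. Genes named are the 6, those of the comparison lists, genes with a TSS within 1 kb of a counted peak and genes whose body holds a distal one. Gm49770, which is outside that rule, was named after its values were seen, and so were the sequence stretches shown. The genes and lists were chosen with earlier results of these data known. No test between groups was possible, since no value belongs to a sample.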

Additional observations from a re-analysis of the deposited data

How the results depend on the processing

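With a 20 kb window the peak count was 37 and the distal count 27. The OCT4::SOX2 motif was found in 0 distal peaks with up to 1 mismatch and in 5 with up to 3. With the CpG class taken over the 500 bases on either side of the TSS, an alternative chosen after seeing the data, 1 gene was low and 5 were intermediate. Of 113 values under alternatives, 97 stayed within the bound set for a change, a factor of 1.5, including the 6 genes with a TSS peak in each alternative tried. Leaving out peaks over 5 kb could not move any of these values, since none of the 59 peaks was that wide. The 97 therefore include values that were fixed in advance. Of the 16 that moved, 10 concerned a single gene: distal peaks of Dppa4 fell to 6, of Tcl1 to 1, of Tdh to 1 and of L1td1 to 5 within 20 kb, rose to 23 for Dppa2 and 17 for L1td1 within 100 kb, and were 1 for Tdh, 4 for Tcl1 and 6 for L1td1 beyond 2500 bp from every TSS. The CpG ratio of Dppa2 was 0.147 in the 2 kb around the TSS. No paired analysis was possible because no value of the merged list belongs to a sample, and leaving out a library was not run for the same reason.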
